A study of Sus scrofa with 8 samples.

Results

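The T cell receptor complex and its coreceptors were followed in the whole blood of miniature pigs through CD3E, CD4, CD8A, CD2, GATA3 and the alpha, beta, gamma and delta receptor chains. Probes were chosen by the gene name or description printed in the scanner files, which gave 19 of 43603 probes. GATA3 has no probe under its own symbol, but 1 probe named LOC733631 carries the RefSeq accession of GATA3 and was added. The 20 probes described thus stand for 9 members (5 genes and 4 receptor chains) of 1988 named in all. They comprised 1 probe each for CD3E, CD8A and GATA3, 2 each for CD4 and CD2, and 13 for receptor chains (6 alpha, 1 beta, 1 gamma and 5 delta).

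The animals were 8 female Clawn miniature pigs, labelled conventional and aged 8 to 9 months. Of these, 4 received shochu distilled water (SDW), named for a Japanese spirit, mixed into their dry feed with water at equal weights, and 4 received the standard dry feed only (control). Sampling was at 12 weeks of feeding in the study's design text and at 14, 15, 16 and 17 weeks in the descriptions of replicates 1 to 4 of each diet, so the duration is not settled. Each animal gave 1 one-colour array from blood kept in PAXgene tubes, which hold all blood cells, and fewer T cells therefore cannot be told apart from less RNA per cell.

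T cells recognise antigen through a receptor made of an alpha and a beta chain, or of a gamma and a delta chain, which has no signalling part of its own. The signal passes through the CD3 subunits, of which CD3E is one, while CD4 and CD8 bind MHC class II and class I molecules beside the receptor. Pigs carry many gamma-delta T cells in blood, and pig NK cells also express CD2 and CD8A, so neither gene marks T cells alone.

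The receptor chains are assembled from gene segments in each T cell clone, and several probes were designed on single rearranged clones. The 5 delta probes and 1 alpha probe are shown because they share a run of letters, in capitals, and none of them was well above background on any of the 8 arrays. A further alpha probe that was well above background on all 8 arrays stands last for comparison. Each is 60 bases long and printed 5′ to 3′ as the files give it. No genome position is given for the probes.
TCR delta 1: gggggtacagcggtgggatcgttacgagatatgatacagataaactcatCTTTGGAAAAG
TCR delta 2: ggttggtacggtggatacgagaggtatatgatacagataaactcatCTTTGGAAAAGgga
TCR delta 3: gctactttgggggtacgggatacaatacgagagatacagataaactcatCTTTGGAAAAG
TCR delta 4: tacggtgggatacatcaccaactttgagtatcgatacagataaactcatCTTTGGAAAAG
TCR delta 5: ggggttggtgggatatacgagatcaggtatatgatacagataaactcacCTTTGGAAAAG
TCR alpha 5: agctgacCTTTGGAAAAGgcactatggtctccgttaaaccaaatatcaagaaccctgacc
TCR alpha 1: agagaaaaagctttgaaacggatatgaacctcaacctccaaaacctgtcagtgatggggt

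The delta probes were alike towards their 3′ end and differed towards their 5′ end. All 5 shared the run GATACAGATAAACTCA of 16 bases, and over their 10 pairs the longest run in common was between 16 and 32 bases. The files name the V, D and J segments for 3 of the 5. The capitals mark CTTTGGAAAAG, of 11 bases, the longest run that the 5 delta probes share with an alpha probe. Searched on both strands, it occurred in 6 of the 20 member probes, a number fixed by how the run was found, and in 16 of all 43603 probes (0.0367%). As background, joining segments of antigen receptor genes encode a phenylalanine-glycine motif; whether the run is that motif was not tested. Delta probes with this much sequence in common may bind each other's transcripts, so they are not independent measures.

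Detection divided the 20 probes evenly. Only probes that Feature Extraction marked well above background on 4 or more arrays, of either diet, were tested, and 10 member probes met that: CD3E, CD8A, both of CD2, GATA3, 3 alpha, the beta and the gamma probe. Of all probes, 17352 were kept. Both CD4 probes, 3 alpha and all 5 delta probes were left out, so the delta chain and CD4 were not compared between diets. The first CD4 probe was well above background in 2 SDW animals, SDW 2 and SDW 4, and in 0 control animals, and the second in 0 animals of either diet. Its levels ran from -4.96 to -1.87 in SDW animals and from -4.68 to -1.65 in control animals, and no fold is given because the SDW mean of -2.94 lay below the bound of -2.16 for the control arrays. TCR alpha 4 was well above background in SDW 4 alone, and the other probes left out on 0 of 8 arrays.

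**Figure D1:**
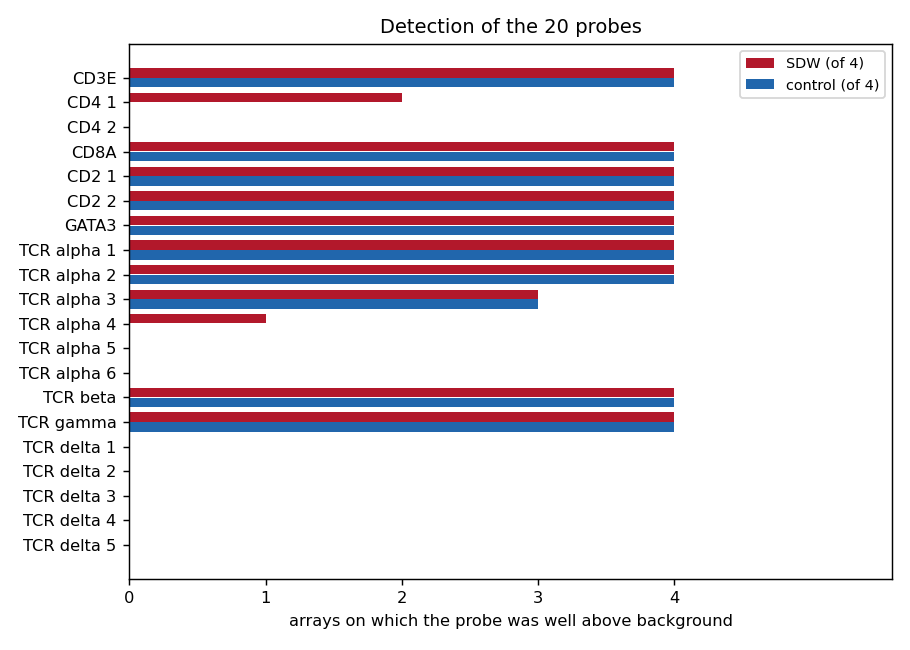
Number of arrays (0 to 4 per diet, horizontal axis) on which each of the 20 probes was well above background, in SDW and control animals. The second CD4 probe, 2 of the alpha probes and all 5 delta probes show no bar, and the first CD4 probe shows 2 SDW arrays.

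The comparison of SDW with control asked how the feed bears on these transcripts in blood. None of the 10 kept member probes was called: limma with Benjamini-Hochberg adjustment over all 17352 kept probes gave 0 member probes at an adjusted p under 0.05, where 0% of all probes were called, and 0 at an unadjusted p under 0.05, where 1.45% of all probes were. Levels are log2 intensities minus the 75th percentile of the array, and differences are SDW minus control on that scale. Of the 10 probes 5 were higher and 5 lower in the mean of the SDW animals, and 52.9% of all kept probes were higher. The median difference was -0.05 over the members and 0.02 over all kept probes. The diets did not overlap for 0 of the 10, against 0.985% of all kept probes. A missed threshold does not show equal levels, and the 95% interval of CD3E, for one, ran from -1.30 to 0.69. Without the 2 arrays of slide 3, 0 member probes were called, against 0.00576% of all kept probes.

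**Figure D2:**
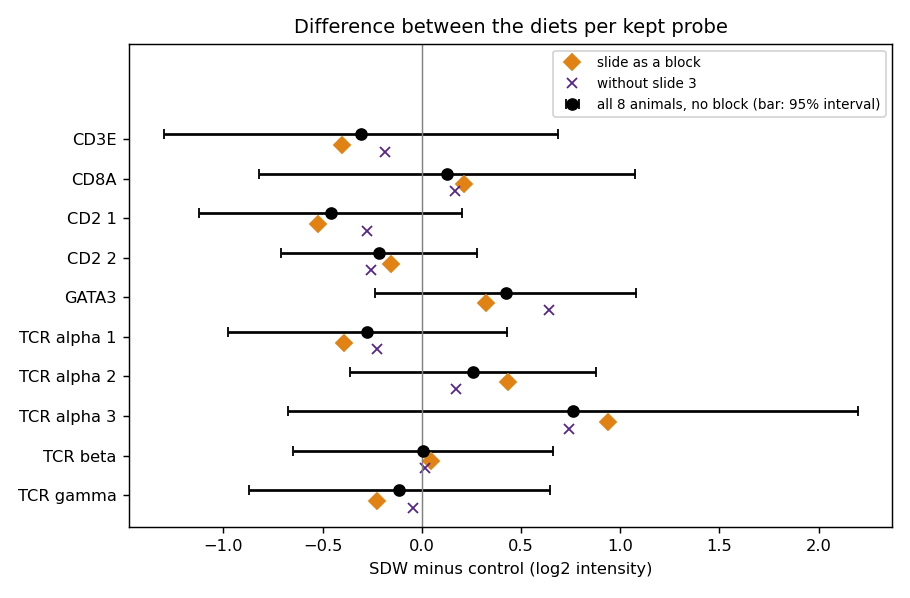
SDW minus control difference (log2 intensity, horizontal axis) of the 10 kept probes: circles with 95% intervals for the fit over 8 animals, diamonds with slide as a block, crosses without the 2 arrays of slide 3. All 10 intervals include 0, and TCR alpha 3 has the widest.

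The arrays need to be read by slide. The 8 arrays lay on 3 slides, each with both diets: SDW 2, SDW 3 and control 3 on slide 1; SDW 1, control 2 and control 4 on slide 2; SDW 4 and control 1 on slide 3, which was scanned on another day. Both slide 3 arrays lay outside the range of the other 6, on the same side, for 5 of the 10 member probes and for 32.7% of all kept probes. Over the arrays, 35.2% to 43.5% of probes were well above background and 0 were saturated.

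CD3E, the epsilon subunit that every T cell receptor needs at the cell surface, had levels of 1.15, 2.11, 1.89 and 2.79 in SDW animals 1 to 4, against 3.46, 1.95, 1.81 and 1.95 in control animals 1 to 4. The highest value of each diet belonged to its slide 3 animal, and the diets overlapped. Its difference was -0.31 ± 0.44 (SE; limma, unadjusted p = 0.506, adjusted p = 1.00), and without control 1 it turned to 0.08. Within slides 1, 2 and 3 the difference was 0.19, -0.80 and -0.67, and without slide 3 it was -0.19.

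The other CD3 subunits, CD3D and CD3G, came from the list of pathway genes. CD3D averaged 5.69 ± 0.38 in SDW and 5.42 ± 0.49 in control animals (SD, n = 4 each) at its brightest probe, and CD3G averaged 1.43 ± 0.89 and 1.74 ± 0.64. Their differences were 0.26 and -0.31 (limma, unadjusted p = 0.409 and 0.523), and neither passed the test. With 1 array left out, CD3D ran from 0.038 (control 3) to 0.40 (control 2) and CD3G from -0.69 (SDW 2) to -0.062 (SDW 4). The slide block gave 0.47 for CD3D (limma, unadjusted p = 0.0517) and -0.50 for CD3G. The 3 CD3D probes did not go together, at 0.26, 0.44 and -0.86, nor did the 2 CD3G probes, at -0.31 and 0.26. The dimmest CD3D probe was well above background on 4 arrays and the dimmer CD3G probe on 6. Relative to the other 6 arrays, the slide 3 arrays were higher by 1.32 for CD3E and stood at -0.15 for CD3D and -1.05 for CD3G, so the slide 3 arrays did not move these subunits one way.

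CD8A encodes the alpha chain of the coreceptor of cytotoxic T cells. Its levels were 2.35, 2.12, 1.72 and 0.69 in SDW animals 1 to 4, against 0.68, 2.19, 1.68 and 1.82 in control animals 1 to 4. Both slide 3 animals, 1 in each diet, stood below every other animal, and the remaining 6 lay between 1.68 and 2.35. The difference was 0.13 ± 0.42 (SE; limma, unadjusted p = 0.773, adjusted p = 1.00). It turned to -0.18 when control 1 was left out, -0.085 for SDW 1 and -0.0079 for SDW 2, and was 0.24, 0.35 and 0.01 within slides 1, 2 and 3. CD8B, the partner chain, differed by 0.19 ± 0.32 (SE) at its brighter probe and by 0.28 at its dimmer one, which was well above background on 6 arrays. Leaving out SDW 1 brought the brighter probe to 0.0051, and leaving out control 2 to 0.42.

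CD2 is an adhesion molecule that binds CD58 on other cells. The first CD2 probe, averaged over its repeat spots, gave -0.35, 0.54, 0.48 and -0.51 in SDW animals 1 to 4, against 0.50, 0.59, 0.20 and 0.71 in control animals 1 to 4. SDW 1 and SDW 4 lay below all control animals, while SDW 2 and SDW 3 lay among them. Its difference of -0.46 ± 0.30 (SE) had the smallest unadjusted p of the 10 member probes, 0.153 (limma, adjusted p = 1.00). The second CD2 probe was steadier, at -0.40, -0.46, -0.31 and -0.45 in SDW animals 1 to 4 and -0.36, 0.21, -0.43 and -0.18 in control animals 1 to 4. It differed by -0.21 ± 0.22 (SE). When SDW 4 was left out the first probe came to -0.28, and when control 2 was left out the second came to -0.08. Without slide 3 the first probe came to -0.28, and it was 0.31 within slide 1, -0.996 within slide 2 and -1.01 within slide 3.

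GATA3, a transcription factor of T cell development and of T helper 2 cells, had levels of 6.57, 6.76, 7.08 and 6.15 in SDW animals 1 to 4, against 6.39, 6.55, 6.35 and 5.58 in control animals 1 to 4. SDW 1, SDW 2 and SDW 3 exceeded every control animal, SDW 1 only narrowly, and SDW 4 lay below 3 of them. The difference was 0.42 ± 0.29 (SE; limma, unadjusted p = 0.182, adjusted p = 1.00). It came to 0.64 without slide 3 (limma, unadjusted p = 0.0719) and to 0.21 without control 4, and within slides 1, 2 and 3 it was 0.57, 0.50 and -0.23. Of 8 T helper 2 genes fixed as a list beside GATA3, 5 had a named probe, and IL4, IL5 and IL13 did not pass the filter. The 2 kept were IL10, a cytokine that restrains inflammation, at 0.29 and IL4R, the IL-4 receptor, at -0.92. Of these 0 were called. Leaving out SDW 2 brought IL10 to 0.058, and leaving out SDW 1 brought IL4R to -0.30. The slide block gave -1.34 for IL4R (limma, unadjusted p = 0.0179, adjusted p = 0.732).

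**Figure D3:**
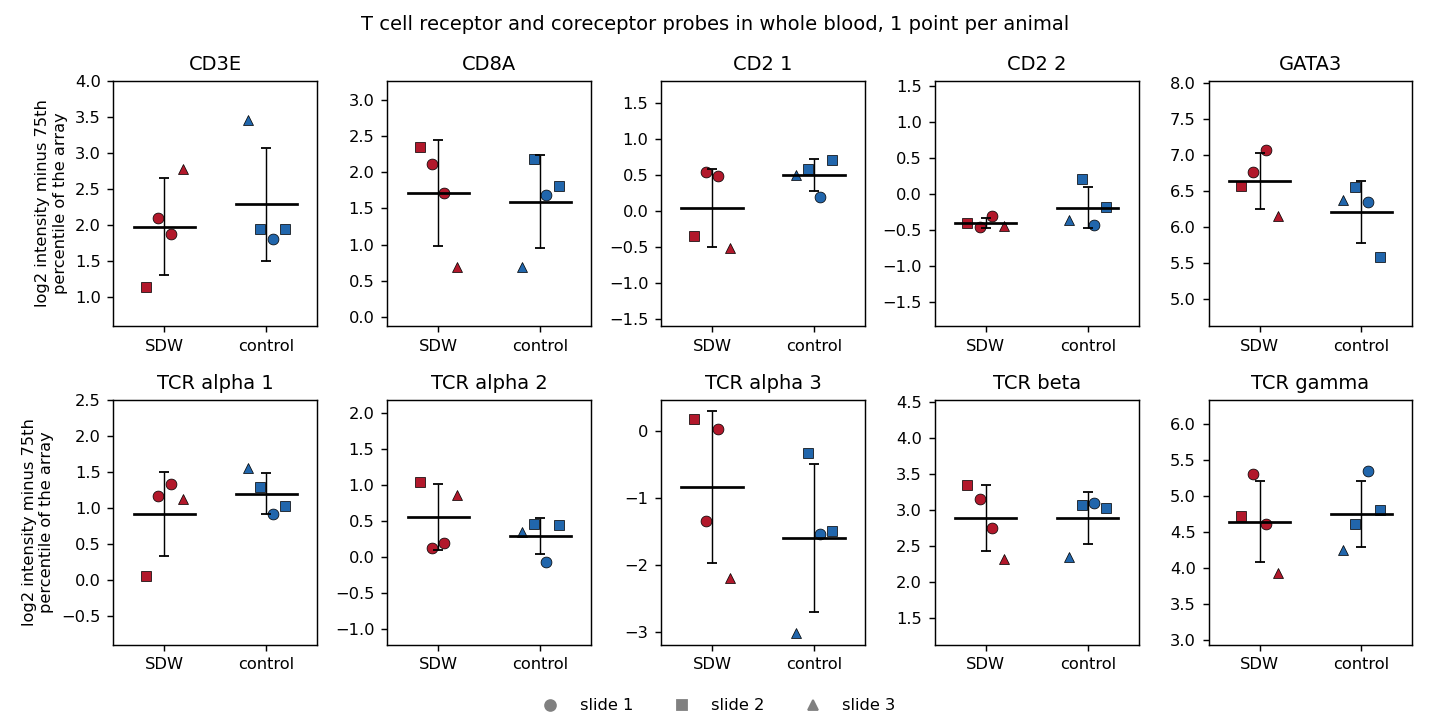
Log2 intensity minus the 75th percentile of the array (vertical axis, each panel with its own range) of the 10 kept probes in 4 SDW and 4 control animals. Points are animals, shapes mark slides, lines are means and bars are SDs; the 2 slide 3 animals (triangles) are the lowest in both diets for CD8A, TCR alpha 3, TCR beta and TCR gamma and the highest in both for CD3E.

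The alpha chain pairs with the beta chain in the receptor of CD4 and CD8 T cells, and its 3 kept probes differed among themselves. TCR alpha 1 gave 0.05, 1.17, 1.33 and 1.13 in SDW animals 1 to 4, against 1.55, 1.28, 0.91 and 1.02 in control animals 1 to 4. SDW 1 lay below all other animals, and without it the difference of -0.27 ± 0.32 (SE; limma, unadjusted p = 0.405) became 0.01. TCR alpha 2 gave 1.04, 0.12, 0.20 and 0.86 in SDW animals 1 to 4, against 0.35, 0.47, -0.07 and 0.45 in control animals 1 to 4, a difference of 0.26 ± 0.28 (SE) that came to 0.10 without SDW 1. SDW 1 was thus the lowest animal for the first alpha probe and the highest for the second.

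TCR alpha 3 had the largest difference of the 10 kept probes and the widest spread. Its levels were 0.17, -1.34, 0.02 and -2.19 in SDW animals 1 to 4, against -3.02, -0.34, -1.54 and -1.49 in control animals 1 to 4. Neither slide 3 array was well above background, so the SDW 4 and control 1 values are near background. The difference was 0.76 ± 0.64 (SE; limma, unadjusted p = 0.264, adjusted p = 1.00). Taken slide by slide it was 0.88, 1.08 and 0.83. With slide as a block it was 0.94 ± 0.36 (SE; limma, unadjusted p = 0.0293, adjusted p = 0.732), the 1 member probe under 0.05 in that fit, where 6.59% of all kept probes were. The slide 3 value in these fits rests on arrays not well above background. Without control 1 the difference came to 0.29, and without SDW 4 to 1.21.

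The beta chain had 1 probe by the rule. TCR beta gave 3.35, 3.16, 2.76 and 2.32 in SDW animals 1 to 4, against 2.35, 3.07, 3.11 and 3.03 in control animals 1 to 4. The slide 3 animals were lowest in both diets. Its difference was 0.01 ± 0.29 (SE; limma, unadjusted p = 0.984, adjusted p = 1.00), and it turned to -0.17 when control 1 was left out, -0.15 for SDW 1 and -0.081 for SDW 2.

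The gamma chain alone represented the gamma-delta chains, since no delta probe was kept. Whether its probe follows gamma-delta cells was not tested. TCR gamma gave 4.72, 5.30, 4.62 and 3.93 in SDW animals 1 to 4, against 4.25, 4.61, 5.35 and 4.80 in control animals 1 to 4. The lowest animal of each diet was again on slide 3. Its difference was -0.11 ± 0.34 (SE; limma, unadjusted p = 0.747, adjusted p = 1.00), with a 95% interval from -0.87 to 0.65. It turned to 0.09 without control 3 and to 0.12 without SDW 4. A second gamma-chain probe, described in the files as TcR and so outside the rule, was well above background on all 8 arrays and differed by -0.12 ± 0.29 (SE).

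Alpha-beta and gamma-delta chains were set side by side per animal, as the mean of the levels after each probe was centred on its mean over the 8 animals. The 4 alpha-beta probes gave 0.36, -0.01, 0.29 and -0.26 in SDW animals 1 to 4, against -0.48, 0.33, -0.19 and -0.04 in control animals 1 to 4. The gamma probe gave 0.02, 0.60, -0.08 and -0.77 in SDW animals 1 to 4, against -0.45, -0.08, 0.65 and 0.11 in control animals 1 to 4. Both classes were lowest in the slide 3 animal of each diet, but the alpha-beta probes did not share this. Relative to the other arrays, slide 3 stood at -1.85 for TCR alpha 3, which was not well above background there, and at -0.74 for TCR beta. For TCR alpha 1 and TCR alpha 2 it stood at 0.38 and 0.23. The alpha-beta minus gamma-delta value averaged 0.15 ± 0.52 in SDW and -0.15 ± 0.52 in control animals (SD, n = 4 each), a difference of 0.30 that is smaller than the spread within either diet. It came to 0.11 without TCR alpha 3. With 1 animal left out it was 0.07 for control 3, 0.18 for SDW 4, 0.49 for control 2 and 0.56 for SDW 2. No test was made of this value, and nothing here measures the delta chain.

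**Figure D4:**
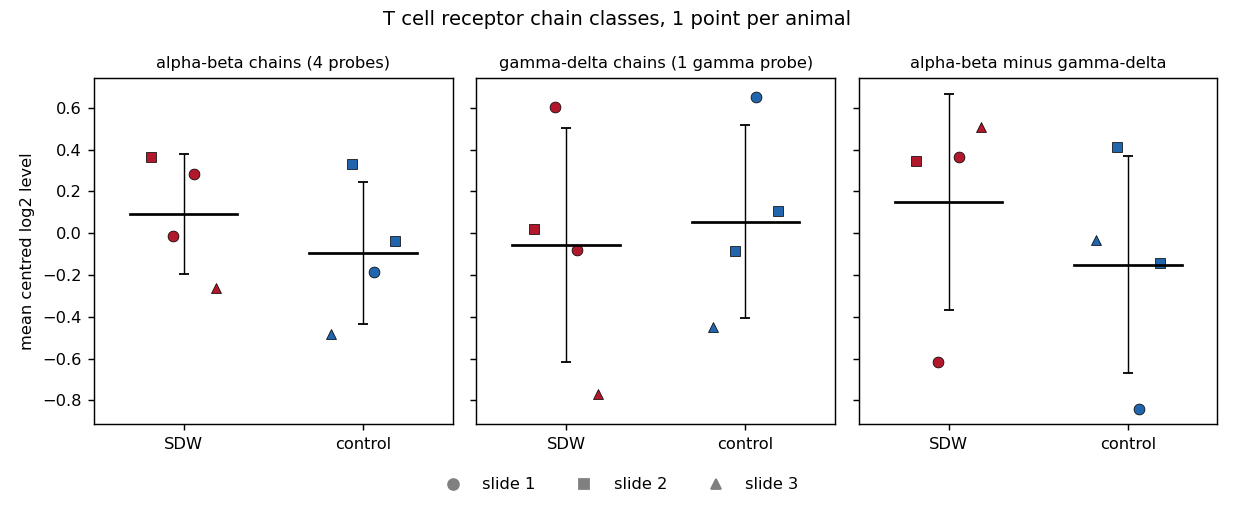
Mean centred log2 level (vertical axis) of the 4 kept alpha-beta chain probes, of the 1 kept gamma probe and of their difference, in SDW and control animals. Points are animals, shapes mark slides, lines are means and bars are SDs; SDW and control animals overlap in all 3 panels.

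The range over the animals can never be smaller than the difference between the diet means. Each is therefore set beside its value over all kept probes, and not against the other. The 10 kept member probes ranged over a median of 1.46 between the lowest and the highest animal, against 1.23 for all kept probes, and their median absolute difference between diets was 0.27, against 0.17. Slide 3 arrays stood apart from the others by a median absolute 0.56, against 0.44 for all kept probes. CD3E was higher there by 1.32, and CD8A, TCR alpha 3, TCR beta and TCR gamma stood at -1.29, -1.85, -0.74 and -0.81. Scan day, slide and the 2 animals cannot be told apart in this contrast.

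**Figure D5:**
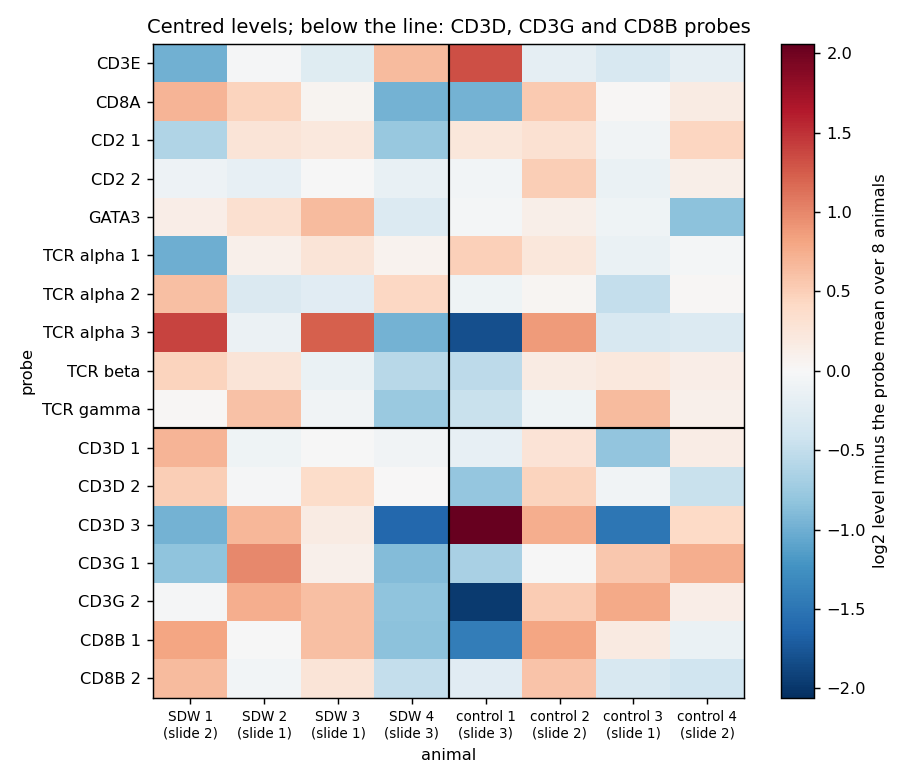
Log2 level minus the mean of the probe over 8 animals (colour) for the 10 kept member probes and, below the line, the kept CD3D, CD3G and CD8B probes, in SDW and then control animals (columns). In the slide 3 columns, SDW 4 and control 1, CD3E is red and CD8A, TCR alpha 3, TCR beta and TCR gamma are blue.

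Genes with the most similar pattern over the 8 animals were found by the root mean square distance between centred levels, among 1117 named genes. Nearest to CD3E were ARAF (distance 0.21), CDK5 (0.21) and RABAC1 (0.22), against a median distance of 0.78. CD8A was nearest to KPNA3 (0.17), KPNA4 (0.18) and ITGB3 (0.19), with a median of 0.71. CD2 was nearest to CRYZL1 (0.22), TXNIP (0.23) and RPLP0 (0.24), and GATA3 to CNN1 (0.16), PSMB10 (0.21) and APOBEC3B (0.22). CRYZL1 was dim, at -3.09 in SDW 4 and -2.35 in control 1. The lowest levels well above background on those arrays were -2.00 and -1.75. The 8 points share 3 slides, and the part of the slides in these distances was not tested.

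Further genes of the pathway were read from the lists, and 0 members passed the adjusted threshold. Of 17 coreceptor and accessory genes 7 had a named probe, and CTLA4 and CD40LG did not pass the filter. Of the 5 kept, 2 were higher and 3 lower, with a median of -0.14. Among them were LAG3, an inhibitory receptor related to CD4, at -0.38 and CD69, an early activation marker, at -0.20. Without control 1 LAG3 came to -0.0097 and without slide 3 to -0.085, while CD69 turned to 0.042 without SDW 1. Of 26 proximal signalling genes 3 had a named probe, and NFATC1 did not pass the filter. Of the 2 kept, FYN, a Src-family kinase of T cells, differed by 0.31 and BCL10, an adaptor on the way to NF-kappaB, by -0.11. Without SDW 1 FYN came to 0.16, and without control 1 BCL10 came to 0.0027. STAT4, which acts below the IL-12 receptor, was the 1 measured gene of 18 T cell transcription factors and stood at -0.19, or -0.092 without SDW 1. No gene of the recombination list (3 genes) was measured.

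Of 13 homing and cytokine receptors of T cells 8 had a named probe, and IL2RG did not pass the filter. The 7 kept had a median of -0.28 against 0.02 over all kept probes, and 0 of them had an unadjusted p under 0.05 in limma. All 7 had lower means in SDW animals over the 8 arrays, but CCR7 turned to 0.16 without control 1 and IL2RA to 0.037 without SDW 3. IL2RA was well above background in 3 SDW and 1 control animals. CCR7 and IL2RA are named after their values were seen. Among them, the chemokine receptors CXCR3 and CXCR4 were at -0.45 and -0.42 (limma, unadjusted p = 0.272 and 0.301). CXCR3 came to -0.17 without SDW 1 and CXCR4 to -0.13 without control 4. Of 11 genes for coreceptor ligands and costimulation 8 were measured, 4 higher and 4 lower. SLA-DQB1, an MHC class II chain of the kind CD4 binds, was at -1.06 (limma, unadjusted p = 0.0467, adjusted p = 1.00), SLA-DRB1, another class II chain, at 0.43 and SLA-1, an MHC class I gene of the kind CD8 binds, at 0.31. Without slide 3 SLA-DQB1 was at -1.52 (limma, unadjusted p = 0.00345, adjusted p = 0.998) and SLA-DRB1 at 0.24. Without control 3 SLA-DQB1 came to -0.79 (limma, unadjusted p = 0.131) and SLA-1 to 0.21. Within slides 1, 2 and 3 SLA-DQB1 was at -2.29, -1.12 and 0.31, so its sign turned on slide 3.

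Markers of other blood cells were read on the same scale, as the range over animals of the mean centred level of each list. The T cell list, whose measured 4 of 7 markers include CD3E and CD2, ranged from -0.43 to 0.29 in SDW and from -0.16 to 0.29 in control animals. NK and cytotoxic markers (3 of 15: GNLY, KLRK1 and FCGR3A) ranged from -0.57 to 0.29 in SDW, against -0.02 to 0.62 in control animals. PRF1 and FASLG had a named probe but did not pass the filter. All 3 had lower SDW means, as did 3 of 4 T cell, 2 of 2 B cell and 6 of 6 neutrophil markers. For monocyte, platelet, and eosinophil and basophil markers it was 2 of 5, 1 of 4 and 0 of 3. Of all kept probes 52.9% had higher SDW means. GNLY, a cytotoxic granule protein, averaged 8.21 ± 0.51 in SDW and 8.92 ± 0.32 in control animals (SD, n = 4 each; limma, unadjusted p = 0.0391, adjusted p = 1.00). B cell markers (2 of 9) ranged from -0.78 to 0.14 in SDW and from -0.35 to 0.71 in control animals, and monocyte markers (5 of 7) from -0.47 to 0.86 and from -0.32 to 0.34. Among the monocyte markers CCR2, a chemokine receptor, averaged 2.69 ± 0.32 in SDW and 1.80 ± 0.23 in control animals (SD, n = 4 each; limma, unadjusted p = 0.00474, adjusted p = 1.00). The monocyte markers CD14, CD163, LYZ and FCGR1A differed by -0.73, 0.10, 0.05 and -0.02, so CCR2 does not stand for its list. FCGR1A was well above background in only 2 SDW and 2 control animals. It ran from -4.93 in SDW 1 to 1.26 in SDW 2, the animal with the highest value of the monocyte list. Neutrophil markers (6 of 12) ranged from -0.60 to 0.13 in SDW and from -0.26 to 0.93 in control animals. Eosinophil and basophil markers (3 of 6) ranged from -0.12 to 0.94 in SDW and from -1.36 to 0.08 in control animals. Platelet markers (4 of 7) ranged from -0.43 to 0.29 in SDW and from -0.51 to 0.31 in control animals, and 0 of 7 erythroid markers were named here. Several ends of these ranges were the slide 3 animals, SDW 4 and control 1. Both were the lowest of their diet for the NK and cytotoxic, eosinophil and basophil, and platelet lists. For the neutrophil and B cell lists both were the highest, and for the T cell and monocyte lists neither end was theirs. The part of the slides in these ranges was not tested. The part of other cells in the T cell values was not tested.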

How the data were processed

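Per the file headers, the authors' scanner files give linear spot intensity from Agilent Feature Extraction 10.1.1.1 (9.5.3.1 per the submitters' processing notes), with spatial and multiplicative detrending on and separate background correction off. Outlier and control spots were left out, spots of a probe averaged, and the log2 intensity centred on each array's 75th percentile. The authors' value table is intensity too, uncentred, by an unstated method; 7 of its 8 columns match another replicate of the same diet, so it served only as an alternative. limma 3.58.1 under R 4.3.3 tested the diets (lmFit and eBayes, two-sided, no covariate, all 8 arrays), p adjusted over 17352 probes well above background on at least 4 arrays; the code was tested on simulated data. Separate animals are the replicates, and their number limits precision. Symbols came from RefSeq tables (Sscrofa11.1) and the files for 3047 probes. Genes were read at their kept probe of highest mean level. The B cell, neutrophil, eosinophil and basophil, and platelet marker lists are given without the values of single genes. Per pathway list, genes with unadjusted p under 0.05 and up to 3 of smallest p are named, and per member the 3 nearest genes. One gene that this rule names is not reported here. Probe numbers run from the brightest. Members and lists were chosen with earlier results of these data known. Alternatives were background correction (normexp, offset 50), normalization, filters, slide blocks, left-out arrays, a replicate block and the value table. Deviations of same-numbered animals from their diet means correlated at -0.17, 0.11, 0.33 and -0.38. Only the animals numbered 3 shared a slide, so these values cannot decide whether the numbers pair the animals.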

Additional observations from a re-analysis of the deposited data

Results flagged for a closer look

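Within the 4 animals of a diet, 3 of 20 sets of values (10 kept probes in each diet) had 1 animal farther from the rest than Dixon's 95% critical value allows; chance gives about 1 in 20. TCR alpha 1 in SDW 1 was at 0.05, against 1.13 to 1.33 in the other SDW animals (ratio of gap to range 0.843). CD3E in control 1 was at 3.46, against 1.81 to 1.95 in the other control animals (ratio 0.916). TCR beta in control 1 was at 2.35, against 3.03 to 3.11 in the other control animals (ratio 0.907). Control 1 is on slide 3.

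One further probe, described as T cell receptor beta without the word chain and so outside the rule, was singled out after its values were seen. It was well above background in 3 SDW and 0 control animals and averaged -1.88 in SDW and -3.24 in control animals. SDW was at least 1.23-fold higher, with the lowest signal well above background as the bound for the control arrays. That SDW mean includes SDW 4, at -2.34, which was not well above background. In the limma fit without a filter its unadjusted p was 0.00214 and its adjusted p 0.972. Of all 43603 probes, 823 had an unadjusted p under 0.05 in that fit. No control value was well above background and the probe was picked after they were seen, so its p cannot decide whether the diets differ. Of the other 3 beta probes outside the rule, 1 was kept and differed by 0.10. The rest were well above background on 0 arrays and differed by -0.98 and -0.23 in the fit without a filter.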

How the results depend on the processing

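No member probe was called under any of the 21 other settings run. Over all probes, 1 was called (TC266964, unnamed and outside the named genes, limma adjusted p = 2.78e-05) without slide 3 and 1 without slide 3 with slide as a block; the cause was not tested. Probes at an unadjusted p under 0.05 numbered 251, and 823 without a filter, 165 with background passed on all 8 arrays (fewer probes tested), 162 with normexp and the 75th percentile, 1143 with a fixed slide block, 632 with a random one, 542 without slide 3 and 1439 without it and with the block; with 1 array left out they numbered from 179 (without SDW 1) to 517 (without SDW 4), with 441 without SDW 3 and 420 without control 1. Member probes under 0.05 numbered 0, and 1 with slide as a fixed block, with or without slide 3. With slide as a random block they numbered 0. TCR beta turned to -0.021 with quantile normalization, to -0.015 with the percentile over probes detected on all arrays, and to -0.027 in the authors' table; BCL10 turned to 0.033 without slide 3; TCR alpha turned to 0.26 and 0.76 at its other probes. With 1 array left out, differences ranged from -0.58 to 0.082 for CD3E, -0.18 to 0.47 for CD8A, -0.41 to 0.014 for TCR alpha 1, -0.17 to 0.20 for TCR beta, -0.33 to 0.12 for TCR gamma, -0.48 to 0.042 for CD69 and -0.22 to 0.0027 for BCL10. The alpha-beta minus gamma-delta value of 0.30 came to 0.13 and 0.16 with normexp, by the 75th percentile and by quantiles. The replicate block gave 0 calls and 239 probes under 0.05, and changed no call. Matching by gene name alone leaves CD3E, CD4, CD8A and CD2, with no chains. The cause of these shifts was not tested.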
